A study of Homo sapiens with 4 samples.

Results

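The 10 genes described here act on mTORC1, some as restraints and some in its activation by amino acids, and were followed in HCT116 cells, an established human colorectal carcinoma line that is known to keep wild-type p53. They are the sestrins SESN1, SESN2 and SESN3, the stress gene DDIT4, the mTOR inhibitor DEPTOR, the Rag GTPases RRAGC and RRAGD, and folliculin (FLCN) with its partners FNIP1 and FNIP2. The 10 genes were chosen by name, as members of this pathway and with earlier results of these data known, out of 29286 genes with values, and all 10 had a value in every library. The 2 groups of libraries compared were both from cells infected with lentivirus for 48 h and then held in puromycin for 3 days. The shNC group carried a control hairpin, titled shNC2 in the samples, and the shWDR43 group a hairpin against WDR43, a nucleolar protein of small-subunit ribosome assembly, with 2 libraries each. The labels name 1 hairpin per group and do not say whether replicates were separate cultures, and p-values therefore reflect the spread between these libraries alone, which may be technical. Levels are in FPKM, fragments scaled for transcript length and for the size of the library, a unit inferred from the values.

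mTORC1 is a kinase complex at the lysosome that drives growth when amino acids are plentiful. Amino acids switch it on through the Rag GTPases, which work as pairs of RRAGA or RRAGB with RRAGC or RRAGD, and the FLCN and FNIP complex acts on RRAGC and RRAGD. Sestrins bind the GATOR2 complex and keep the Rag branch off, and SESN2 is known as a leucine sensor. DDIT4 acts through the TSC complex, and DEPTOR binds mTOR itself. SESN1 and SESN2 are known targets of p53, SESN2 and DDIT4 are also known targets of the amino-acid stress factor ATF4, and RRAGC, RRAGD, FLCN, FNIP1 and FNIP2 are known targets of the lysosomal factors TFEB and TFE3.

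SESN1 and SESN2 were the only ones of these genes to pass the test given below. The 120 bases before a RefSeq start of each are shown (GRCh38.p14, 5′ to 3′ on the gene's strand). The SESN1 stretch, chr6:109008989-109009108 on the minus strand, lies before the most downstream of 3 listed starts, in an intron of the longer SESN1 transcripts in GENCODE release 29. The SESN2 stretch is chr1:28259398-28259517 on the plus strand, upstream of the gene. Capitals mark a p53 half-site in SESN1 (3 purines, C, A or T at 2 positions, G, 3 pyrimidines) and a CCAAT box on the minus strand in SESN2. The SESN1 stretch holds a CCAAT box too, on the printed strand 75 to 71 bases before the start, left in lower case here.
SESN1: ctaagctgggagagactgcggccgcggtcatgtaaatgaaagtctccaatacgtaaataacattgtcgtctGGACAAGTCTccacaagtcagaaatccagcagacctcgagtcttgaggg
SESN2: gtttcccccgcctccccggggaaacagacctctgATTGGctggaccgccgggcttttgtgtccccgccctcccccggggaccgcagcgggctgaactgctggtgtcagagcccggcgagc
Both strands were searched in windows from 250 bases before to 50 after each start. A half-site was found in 6.63% of 35116 such windows of all genes and CCAAT in 34.6%. Of the 3 SESN1 windows, only the 1 with the printed stretch held a half-site. Whether these letters bear on the change in either gene was not tested. No window of the 8 genes searched held 2 half-sites within 13 bases of each other, an arrangement found in 0.0285% of all windows. Only exact matches were counted, so a neighbouring half-site with a mismatch would be missed. TGATGCA, part of the ATF4 site, was in none of the 11 windows of these 8 genes, against 2.63% of all windows.

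The letters CACGTG, the core that TFEB and TFE3 bind, are shown because 2 of the genes hold them close to their starts. On either strand CACGTG was found in 7.26% of all windows, and the longer TCACGTG, which contains it, in 3.71%. Each match here is also a match to TCACGTG on the other strand. RRAGC holds 1 such match (chr1:38859867-38859896, minus strand) and FNIP1 holds 2 (chr5:131797175-131797204 and chr5:131797094-131797123, minus strand), all upstream of the gene. Capitals mark CACGTG.
RRAGC: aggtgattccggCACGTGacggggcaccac
FNIP1, farther from the start: ccccgcccctgcCACGTGacgggacccgcc
FNIP1, nearer to the start: tccgcgcgccgcCACGTGatgcggcccccc
These matches are letters in a window and were not tested as binding sites. RRAGD and DEPTOR were not searched.

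The libraries summed to between 393582 and 413758 FPKM over genes with an identifier, and 13022 to 13373 genes reached 1 FPKM. Read totals were not used, so the depth is unknown and no counting interval is given. Libraries of the same group were the closest, with an SD of the log2 difference across genes of 0.177 in shWDR43 and 0.245 in shNC, against 0.281 to 0.317 between groups. Of 11 epithelial markers with values 8 reached 1 FPKM in every library, with EPCAM at 155 to 181 FPKM, while the intestinal genes VIL1 and LGALS4 were under 0.1 FPKM. The summed epithelial markers were at 1780 and 2110 FPKM in shNC compared with 2560 and 2530 FPKM in shWDR43, and their part in the results was not tested. The higher sum came from KRT8, KRT18, KRT19 and CLDN4, whereas EPCAM, CDH1, CLDN3 and CDX2 had log2 differences between -0.26 and -0.03. Leukocyte and endothelial markers summed to at most 0.498 and 0.401 FPKM. Fibroblast markers summed to 5.77 to 7.85 FPKM, nearly all of it COL1A1 (5.69 to 7.80 FPKM), with 7.85 and 7.06 FPKM in shNC and 7.20 and 5.77 FPKM in shWDR43. No value for WDR43 was analysed here, so the knockdown could not be checked on its target.

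Of the 10 genes 1 rose, SESN1, and 1 fell, SESN2, by limma on log2(FPKM + 1), with a Benjamini-Hochberg adjusted p under 0.05 over 13303 tested genes. Over all tested genes 6.26% passed, 4.79% upward and 1.47% downward, and 2 among 10 is not read as a result about the genes as a group. The median log2 difference was 0.08 for the 10 genes and 0.05 for all tested genes. In 6 of the 10 the groups did not overlap, 4 higher and 2 lower in shWDR43, against 35.8% and 21.5% of all tested genes, or 57.3% in either direction. Over all tested genes 637 rose and 196 fell, a split of 298 to 236 with median-ratio scaling and of 194 to 182 with upper-quartile scaling.

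**Figure D1:**
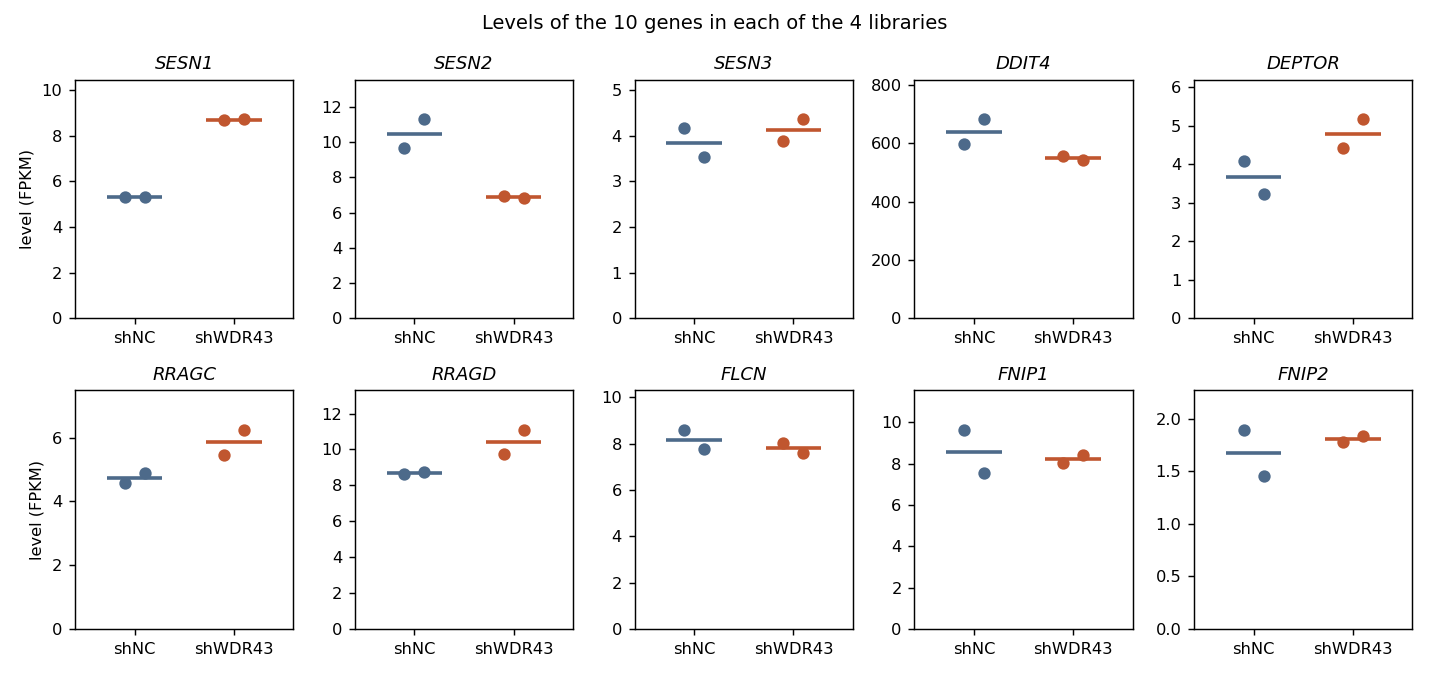
Levels in FPKM on linear axes that start at 0, with 1 point per library, 2 per group, and a bar at the group mean. SESN1 is higher and SESN2 lower in both shWDR43 libraries than in both shNC libraries, while the groups of SESN3, FLCN, FNIP1 and FNIP2 overlap.

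SESN1, a sestrin gene known as a p53 target, is ENSG00000080546 on chromosome 6 (108986437 to 109094819, minus strand). It was at 5.32 and 5.30 FPKM in shNC replicates 1 and 2 and at 8.68 and 8.72 FPKM in shWDR43 replicates 1 and 2. The gap between the groups was far wider than the gap between replicates, which differed by less than 0.1 FPKM. The mean rose 1.64-fold, from 5.31 ± 0.01 to 8.70 ± 0.0237 FPKM (SD, n = 2 per group), and the log2 difference was 0.62 ± 0.09 (SE, limma adjusted p = 0.0203). SESN1 stayed past the threshold in 10 of 11 alternatives, and did not pass without the filter on low values (adjusted p = 0.104). An antisense gene that overlaps exons of SESN1, ENSG00000271730, was at most 0.587 FPKM, and no source used here states whether counting used strand.

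SESN2, the leucine-binding sestrin, is ENSG00000130766 on chromosome 1 (28259527 to 28282491, plus strand), and no other annotated gene overlaps it. Its levels were 9.65 and 11.3 FPKM in shNC against 6.97 and 6.85 FPKM in shWDR43. Both shWDR43 libraries lay below both shNC libraries, and the shNC libraries differed more from each other than the shWDR43 libraries did. The mean fell to 0.660 times that of shNC, from 10.5 ± 1.16 to 6.91 ± 0.0824 FPKM (SD, n = 2 per group), with a log2 difference of -0.53 ± 0.10 (SE, limma adjusted p = 0.0342). The call was lost without shWDR43 replicate 1 (log2 difference -0.54, adjusted p = 0.0548), without shWDR43 replicate 2 (-0.52, adjusted p = 0.0634) and without the filter on low values (adjusted p = 0.131).

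SESN3, the sestrin gene known as a FOXO target, is ENSG00000149212 on chromosome 11 (95165513 to 95232541, minus strand). It was at 4.17 and 3.53 FPKM in shNC compared with 3.89 and 4.36 FPKM in shWDR43. The groups overlapped, and the log2 difference was 0.08 with a 95% interval of -0.20 to 0.36 (adjusted p = 0.705). LNCRNA-IUR, on the opposite strand, overlaps exons of SESN3 and was at 0.329 to 0.787 FPKM.

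The make-up of the sestrin transcripts differed between the groups more than their summed level did. The sum of the 3 levels was 19.1 and 20.1 FPKM in shNC and 19.5 and 19.9 FPKM in shWDR43, so the shWDR43 values lay between the shNC values. SESN1 made up 27.8% and 26.3% of that sum in shNC and 44.4% and 43.7% in shWDR43. SESN2 made up 50.4% and 56.1% in shNC and 35.7% and 34.4% in shWDR43. SESN2 was thus the most abundant sestrin transcript in both shNC libraries and SESN1 in both shWDR43 libraries. The ratio of SESN1 to SESN2, which no scaling of a library can change, was 0.551 and 0.470 in shNC and 1.25 and 1.27 in shWDR43. The groups do not overlap in this ratio, which follows from SESN1 being higher and SESN2 lower in both shWDR43 libraries. The ratio is therefore no separate finding. An exact two-sided permutation test of 2 against 2 libraries cannot go below p = 0.333, and gave that value.

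**Figure D2:**
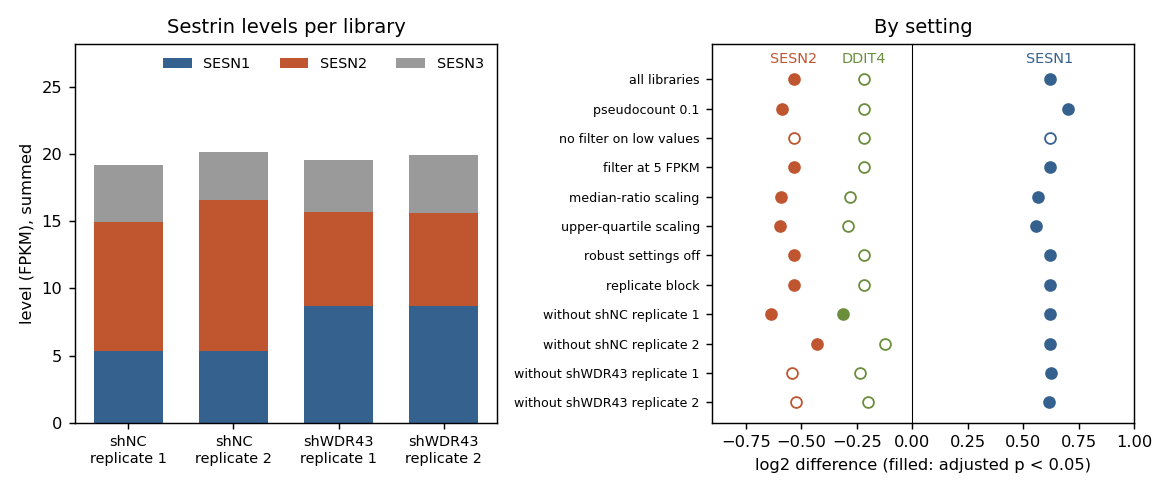
Left, stacked bars of SESN1, SESN2 and SESN3 levels in FPKM, 1 bar per library, where the totals run from 19.1 to 20.1 FPKM while the SESN1 part is larger and the SESN2 part smaller in shWDR43. Right, the log2 difference (shWDR43 minus shNC) of SESN1, SESN2 and DDIT4 under each setting, filled where the adjusted p is below 0.05; SESN1 and SESN2 keep their signs in every setting drawn.

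DDIT4, also called REDD1, is a stress-induced gene whose product restrains mTORC1 through the TSC complex. It is ENSG00000168209 on chromosome 10 (72273920 to 72276036, plus strand). Its level was 597 and 681 FPKM in shNC and 556 and 542 FPKM in shWDR43. Both shWDR43 libraries were lower than both shNC libraries, but shNC replicate 1 was closer to them than to shNC replicate 2. The log2 difference of -0.22 ± 0.11 (SE) did not pass the test (95% interval -0.48 to 0.05, adjusted p = 0.273). Without shNC replicate 1 it passed, at -0.31 (adjusted p = 0.0225), and without shNC replicate 2 it was -0.12 (adjusted p = 0.202). At a mean of 594 FPKM over the 4 libraries, DDIT4 was by far the most abundant of the 10, the others having means between 1.74 and 9.55 FPKM. Its annotated antisense partner DDIT4-AS1 lies within it, and reads of the pair cannot be told apart without strand.

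DEPTOR encodes an inhibitory partner of mTOR. It is ENSG00000155792 on chromosome 8 (119873717 to 120050913, plus strand). Levels were 4.09 and 3.23 FPKM in shNC and 4.42 and 5.16 FPKM in shWDR43. The shWDR43 libraries were the higher ones, with shWDR43 replicate 1 close to shNC replicate 1. The log2 difference was 0.32 ± 0.13 (SE) and did not pass (95% interval 0.01 to 0.62, adjusted p = 0.178), and it ran from 0.18 to 0.45 as each library was left out.

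RRAGC and RRAGD encode alternative members of the Rag pairs that carry the amino-acid signal to mTORC1. RRAGC (ENSG00000116954, chromosome 1, 38838198 to 38859823, minus strand) was at 4.58 and 4.90 FPKM in shNC compared with 5.47 and 6.23 FPKM in shWDR43. RRAGD (ENSG00000025039, chromosome 6, 89364636 to 89412270, minus strand) was at 8.63 and 8.73 FPKM in shNC compared with 9.76 and 11.1 FPKM in shWDR43. Both genes were higher in both shWDR43 libraries, with shWDR43 replicate 2 the highest for each. The log2 difference of RRAGC was 0.25 ± 0.11 (adjusted p = 0.187) and that of RRAGD 0.24 ± 0.10 (adjusted p = 0.177; SE for both), and neither passed. Neither passed in any of the 11 alternatives, in which RRAGC ran from 0.17 to 0.33 and RRAGD from 0.15 to 0.32. Within the RRAGC and RRAGD sum, RRAGC made up 34.7% and 36.0% in shNC and 35.9% and 36.0% in shWDR43. The partner genes RRAGA and RRAGB summed to 17.6 and 18.5 FPKM in shNC and to 19.2 and 20.8 FPKM in shWDR43, and did not pass either, with log2 differences of 0.17 for RRAGA and 0.02 for RRAGB. A processed transcript, ENSG00000273637, overlaps exons of RRAGC on the same strand, so its level is uncertain.

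FLCN and its partners FNIP1 and FNIP2 form the complex that promotes GTP hydrolysis on RRAGC and RRAGD and so controls how mTORC1 handles TFEB and TFE3. FLCN (ENSG00000154803, chromosome 17, 17212212 to 17237188, minus strand) was at 8.58 and 7.76 FPKM in shNC compared with 8.02 and 7.60 FPKM in shWDR43. FNIP1 (ENSG00000217128, chromosome 5, 131641714 to 131797063, minus strand) was at 9.62 and 7.55 FPKM in shNC compared with 8.01 and 8.43 FPKM in shWDR43. FNIP2 (ENSG00000052795, chromosome 4, 158769138 to 158908049, plus strand) was the least abundant of the 10, at 1.89 and 1.45 FPKM in shNC compared with 1.78 and 1.83 FPKM in shWDR43. The groups overlapped for all 3 genes, and for FNIP1 and FNIP2 both shWDR43 libraries lay between the shNC libraries. The 95% intervals of the log2 difference were -0.29 to 0.17 for FLCN, -0.33 to 0.23 for FNIP1 and -0.25 to 0.40 for FNIP2, with adjusted p = 0.749, 0.836 and 0.770 by limma. FNIP1 made up 83.6% and 83.9% of the FNIP sum in shNC and 81.8% and 82.1% in shWDR43. Genes that overlap FLCN (ENSG00000264187) and FNIP1 (ENSG00000273217) on the same strand have exons that overlap theirs, and the first of these was at most 0.137 FPKM.

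**Figure D3:**
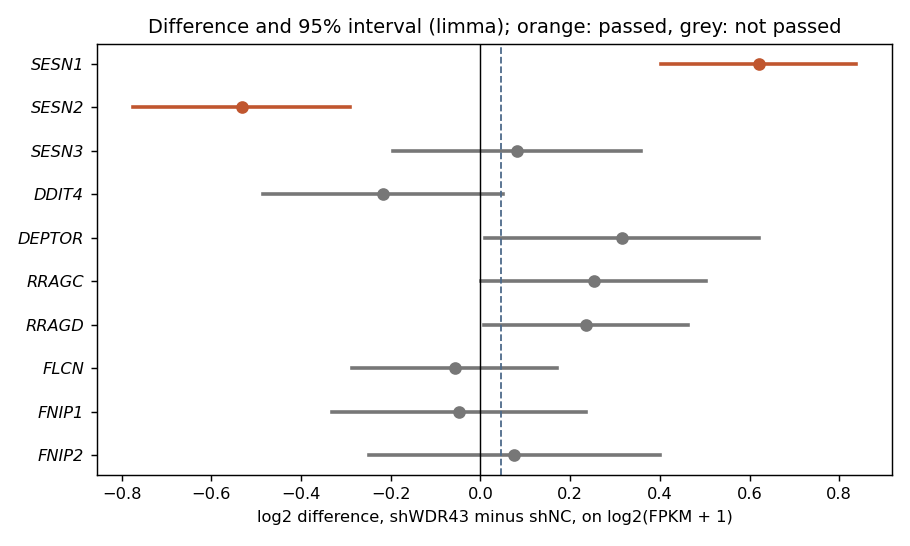
Log2 difference, shWDR43 minus shNC, on the log2(FPKM + 1) scale for each of the 10 genes, with bars for the 95% interval (limma) and a dashed line at the median of all tested genes, 0.05. SESN1 and SESN2, in orange, passed the test on opposite sides of 0, and the other genes, in grey, did not pass.

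Elsewhere in the same pathway no gene passed the test in 9 lists of sensing and kinase components, which held 60 tested genes. The share that passed over all tested genes was 6.26%. Of these 60, 21 had an unadjusted p below 0.05 by limma, against 26.4% of all tested genes. The GATOR2 complex, which sestrins bind, had 0 of 5 genes past the threshold, with WDR59 nearest at 21.5 and 20.2 FPKM in shNC and 17.6 and 16.4 FPKM in shWDR43 (log2 difference -0.28, adjusted p = 0.0946). GATOR1, the brake on the Rag genes' products, had 0 of 3, with NPRL3 at a log2 difference of -0.22 and DEPDC5 at -0.20. KICSTOR, its lysosomal anchor, had 0 of 4, with KICS2 at 0.31 and ITFG2 at -0.24. In the list of other amino-acid sensors 0 of 5 tested genes passed. The arginine sensor gene CASTOR1 and its relative CASTOR2 had the highest log2 differences there. CASTOR1 was at 1.42 and 1.86 FPKM in shNC compared with 4.18 and 2.60 FPKM in shWDR43 (log2 difference 0.72, adjusted p = 0.0647). It passed without shWDR43 replicate 2 (0.98, adjusted p = 0.000734) and without shNC replicate 2 (0.84, adjusted p = 0.0421). CASTOR2 was at 2.35 and 2.19 FPKM against 3.54 and 3.29 FPKM (log2 difference 0.43, adjusted p = 0.0646). CASTOR1 and CASTOR2 have close copies in the genome, so their levels are uncertain.

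Ragulator, the lysosomal scaffold of the Rag pairs, was listed with RRAGA and RRAGB, and 0 of 7 passed. All 7 log2 differences were positive, from 0.02 to 0.28 (7720 of 13303 positive over all tested genes). Signs were not recounted after median-ratio or upper-quartile scaling, which moved the median over all tested genes from 0.05 to -0.01. LAMTOR5 and LAMTOR3 were nearest, each at 0.28. Of the TSC complex, RHEB and relatives 0 of 6 passed. TBC1D7, a TSC subunit, was at 3.14 and 3.45 FPKM in shNC compared with 4.92 and 4.73 FPKM in shWDR43 (log2 difference 0.44, adjusted p = 0.0541), and RHEB, the direct activator of mTORC1, had a log2 difference of 0.18. The mTOR complexes had 0 of 9, with MTOR, the kinase, at 7.35 and 6.24 FPKM against 9.04 and 9.60 FPKM (log2 difference 0.41, adjusted p = 0.0644) and PRR5, of mTORC2, at 0.44. MTOR passed without shNC replicate 1 (0.51, adjusted p = 0.0200) and with a filter at 5 FPKM (adjusted p = 0.0474). Among mTORC1 substrates 0 of 11 passed, with the translation repressor EIF4EBP2 at 0.32 and the adaptor GRB10 at -0.34. AMPK subunits and their activators had 0 of 10, with PRKAG2 at 0.40 and PRKAB2 at 0.32. Of the genes named from these lists, WDR59, DEPDC5, LAMTOR5, TBC1D7, RHEB, PRR5 and GRB10 passed without shNC replicate 2, with the lowest adjusted p, 0.0217, for TBC1D7. CASTOR2, EIF4EBP2 and PRKAG2 passed without shNC replicate 1, with the lowest adjusted p, 0.0122, for PRKAG2, which also passed with a filter at 5 FPKM (adjusted p = 0.0488).

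TFEB and TFE3 targets, the class that RRAGC, RRAGD, FLCN and the FNIP genes belong to, had 4 of 20 tested genes that rose and 0 that fell, apart from those 5. The shares over all tested genes were 4.79% that rose and 1.47% that fell. The median log2 difference of these targets was 0.27, against 0.05 over all tested genes. Of the 20, 19 were positive, compared with the 7720 of 13303 given for all tested genes. These signs were not recounted after the 2 scalings either. ATP6V0D1, a subunit of the lysosomal proton pump, rose from 7.99 and 7.01 FPKM to 15.3 and 13 FPKM (log2 difference 0.83, adjusted p = 0.0157). LAMP1, a lysosomal membrane protein gene, rose by 0.47, the protease gene CTSD by 0.43 and the pump subunit gene ATP6V1H by 0.44 on the log2 scale. TFE3 itself was at 12.6 and 13.1 FPKM against 10.9 and 11.2 FPKM (log2 difference -0.20, adjusted p = 0.200) and TFEB at 1.93 and 1.44 FPKM against 2.00 and 1.63 FPKM, and neither passed. These 2 were named after their values were seen. The number of TFEB and TFE3 targets that rose was 7 without shNC replicate 1, 9 without shNC replicate 2 and 1 without either shWDR43 library in turn. It was 2 after median-ratio scaling, 1 after upper-quartile scaling, 2 with the replicate number as a block, 7 with a filter at 5 FPKM and 0 without a filter. ATP6V0D1 passed in each of these alternatives but the last.

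Lists of other p53 and ATF4 targets, also chosen with earlier results known, are given beside the sestrins. Of 30 other tested p53 targets 20 rose and 0 fell, with a median log2 difference of 0.58. Of 33 other tested ATF4 targets 16 fell and 0 rose, with a median of -0.42. Over all tested genes 4.79% rose and 1.47% fell, with a median of 0.05. CDKN1A, the p21 gene, was at 73.8 and 75.7 FPKM in shNC compared with 239 and 229 FPKM in shWDR43. ASNS, the asparagine synthetase gene, was at 101 and 123 FPKM in shNC compared with 41.5 and 43.0 FPKM in shWDR43, a level made uncertain by other annotated genes at its locus. The tested p53 targets ran from 0.05 to 1.63 and the ATF4 targets from -1.38 to 0.26 on the log2 scale. Both ranges are wide. By percentile of the log2 difference among all tested genes, the p53 list began at 50.3, and the ATF4 list ran from 0.0301 to 82.4. Many genes therefore lie within either range, and lying within one assigns a gene to neither factor. SESN1, at 0.62, lay within the range of the p53 list. SESN2, at -0.53, lay within that of the ATF4 list and below every gene of the p53 list, although it is a known target of both factors. DDIT4, at -0.22, also lay within the range of the ATF4 list and below every gene of the p53 list. What drives these differences was not tested. The other named p53 targets were PLK3, SFN and BTG2, which rose by 1.11, 1.30 and 1.19, and the other named ATF4 targets were TRIB3, AARS1 and SLC7A11, with log2 differences of -1.35, -0.94 and -1.33.

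**Figure D4:**
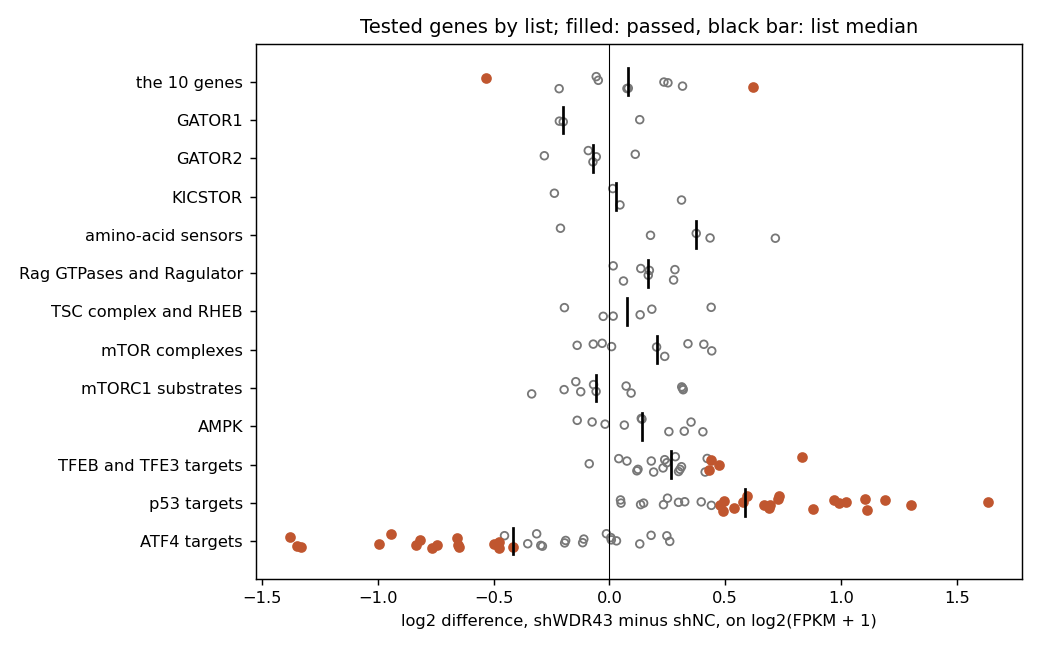
Log2 difference, shWDR43 minus shNC, of each tested gene, 1 row per list, filled where the gene passed the test, with a black bar at the list median. The row of the 10 genes has 1 filled point on each side of 0, the p53 targets lie to the right (median 0.58) and the ATF4 targets mostly to the left (median -0.42).

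For SESN1 and SESN2, the genes of most similar pattern were sought by Euclidean distance of centred log2(FPKM + 1) values over the 4 libraries. Distances were taken over the 8220 genes whose mean reached 5 FPKM, and only genes with a symbol were kept for naming. With 4 libraries many genes share a pattern, so this is a description alone. Nearest to SESN1 were BLCAP (distance 0.0271), GALNT18 (0.0274) and DKK1 (0.0394), the last a secreted WNT inhibitor gene at 75.8 and 77.4 FPKM in shNC and 115 and 119 FPKM in shWDR43. Nearest to SESN2 were CCDC174 (0.0468), HSP90B1 (0.0498) and CENPE (0.0569). HSP90B1, an endoplasmic reticulum chaperone gene, was at 959 and 1092 FPKM in shNC compared with 691 and 713 FPKM in shWDR43.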

How the data were processed

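RNA was extracted with Trizol and libraries made with an Illumina TruSeq kit, per the labels' protocols. The submitters' processing notes name CASAVA 1.8, Trimmomatic, FastQC, HISAT2, RSEM and edgeR with GRCh38, with no role or order. The deposited values were read as FPKM, which the authors' headers do not state. No source used here gives the annotation release or the strand setting. A blank entry was left out. Low values showed no whole-read steps (at most 1.01% of genes in any 1% window of ratios), so the depth is unknown.

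limma 3.58.1 in R 4.3.3 was fitted on log2(FPKM + 1), which understates changes of low genes, for genes that reached 1 FPKM in 2 or more libraries, with the group as the only term, trend and robust moderation, and a two-sided adjusted p threshold of 0.05. All 10 genes passed this filter in all 4 libraries. The fit was tested on simulated data. Positions come from GENCODE release 29 and sequences from RefSeq (GRCh38.p14), where 8 of the 10 genes were matched and searched. Alternatives were another pseudocount, filters, scalings, non-robust moderation, the replicate number as a block and each library left out.

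The members and lists were chosen with earlier results of these data known. Named are the 10 genes, CDKN1A and ASNS. In each list the 4 (or fewer) genes of lowest p that passed are named, or the 2 of lowest p where none did. For each of the 10 that passed, the 3 genes with a symbol nearest in pattern are named. Python 3.11.15 and scipy 1.17.1 were used for tables and exact tests.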

Additional observations from a re-analysis of the deposited data

How the results depend on the processing

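SESN1 (0.56 to 0.70) and SESN2 (-0.64 to -0.43) kept their direction in all 11 alternatives named above. Without the filter on low values, which raises the genes tested from 13303 to 26938, neither passed (SESN1 0.62, adjusted p = 0.104; SESN2 -0.53, adjusted p = 0.131), 0 of the 10 genes rose and 0 fell, 0 genes of the pathway lists together rose, 4 p53 targets rose, 1 ATF4 target fell, and 15 genes rose and 2 fell over all genes. As each library was left out, SESN2 ran from -0.64 to -0.43, the genes among the 10 that fell from 0 to 2, all genes that rose from 258 to 1795 and that fell from 133 to 815, pathway genes that rose from 1 to 16 and that fell from 0 to 5, and ATF4 targets that rose from 0 to 3. With 3 libraries, the spread of the single remaining library is assumed to equal that of the other group. Pathway genes that rose, 4 as reported, numbered 9 with a filter at 5 FPKM, 2 after median-ratio scaling and 1 after upper-quartile scaling, where 298 and 194 of all genes rose. With the replicate number as a block, 413 of all genes rose and 2 pathway genes did, and SESN1 and SESN2 still passed. The deviations of same-numbered libraries from their group means had a weak negative correlation over genes (-0.147), whose sign crossing the numbers must reverse. With the numbers crossed, an alternative chosen after seeing the data, 1375 genes rose and 579 fell, 19 of the risers in the pathway lists. For the other 30 named genes, 288 values stayed on their side of the threshold, 20 lost the call and 15 gained it, without a change of direction but for DEPDC5, which was not called and was at 0.02 without shNC replicate 1. Of the 10 genes, FLCN (0.01) and FNIP1 (0.11) changed sign without shNC replicate 1, and SESN3 (-0.01) and FNIP2 (-0.04) without shNC replicate 2, none of them called. The 30 named genes above are those taken from the lists by rule. The genes nearest in pattern, and RRAGA, RRAGB, TFEB and TFE3, are not among them. Unknown depth and 2 libraries per group limit every value here.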
